A study of Mus musculus with 6 samples.

Results

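The endothelial glycocalyx is the sugar-rich coat on the luminal face of blood vessels, and it was examined here through 40 genes listed by name: 11 core proteins (sialomucins, syndecans and glypicans), 27 enzymes that build, sulfate or edit heparan sulfate and chondroitin sulfate, and 2 hyaluronidases. Members were taken as the rows whose gene symbol equals a listed name. Of the 40, 38 were measured and tested, among 12911 genes in the tables, and the other 2, Hs6st2 and Hpse, were not analysed here. No measured value entered the choice of names, but the list was drawn up with earlier results of these data known.

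Core proteins carry the sugar chains. Syndecans cross the membrane and glypicans are held on it by a lipid anchor, and both bear heparan sulfate; the sialomucins endomucin, podocalyxin and CD34 bear sialic acid and give the surface a negative charge. A glycosaminoglycan chain is begun by a xylosyltransferase that adds xylose to a serine of the core protein. Galactosyl- and glucuronosyltransferases finish the linker, exostosins extend heparan sulfate or chondroitin synthases extend chondroitin sulfate, and sulfotransferases then decorate the chain in the Golgi. Outside the cell, sulfatases remove selected sulfate groups, and hyaluronidases cut hyaluronan, a chain that is made without a core protein. In the glomerulus this coat lines and fills the fenestrae of the capillary wall and belongs to the filtration barrier.

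The libraries came from glomerular endothelial cells of mice null for eNOS, the endothelial nitric oxide synthase gene. The STZ group (3 libraries) received streptozotocin, a toxin that destroys pancreatic beta cells and is used to induce diabetes, and the control group (3 libraries) had no treatment; both groups lack eNOS, so no library represents eNOS-intact endothelium. Glomeruli were isolated with magnetic beads perfused into the animal, dissociated enzymatically, and sorted for EYFP fluorescence, with an average yield of 200000 cells per mouse. RNA of 4 mice was pooled for each library, only RNA with an integrity value over 7.5 was sequenced, and the labels used here give neither the promoter that drives EYFP nor the age or sex of the animals. With pooled RNA, each p-value measures the spread between pools of animals.

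The deposited counts summed to between 4387339 and 12662371.5 per library, and the control libraries were the shallower ones. Values below are CPM, counts scaled to a common library size, after TMM correction for differences in library composition. The endothelial markers were abundant, summing to 15450 to 16270 CPM in STZ libraries and 11180 to 11720 CPM in control libraries, and 5 of 10 were higher in STZ cells. RNA of neighbouring cells was present in all 6 libraries. The 12 podocyte markers summed to 2112, 1543 and 2168 CPM in STZ libraries 1 to 3, against 2947, 3437 and 1576 CPM in control libraries 1 to 3. The 11 mesangial and mural markers summed to 739.5, 469.6 and 864.9 CPM in the STZ libraries, against 1306, 1291 and 1190 CPM in the control libraries, with no overlap between the groups. Tubule and parietal epithelial markers summed to 43.0 to 217 CPM in STZ libraries and 136 to 446 CPM in control libraries, leukocyte markers to 85.6 to 99 CPM in STZ libraries and 98.2 to 122 CPM in control libraries, and erythroid markers to 125 to 206 CPM in STZ libraries and 21.8 to 59.1 CPM in control libraries. Xist stood at 0.387 to 0.865 CPM in STZ libraries and 689.7 to 746 CPM in control libraries, and 4 Y-linked genes were higher in STZ libraries, so the sex-linked genes separate the libraries exactly as the treatment does and the 2 differences cannot be told apart. Control library 3 stood apart from the other control libraries on the second principal component, and had the fewest counts. In bulk RNA, fewer cells of a type and less RNA per cell cannot be told apart.

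Across the 38 measured members, 6 were higher in STZ cells (Emcn, Sdc3, Sulf2, Chst15, Hyal1 and Hyal2), 4 were lower (Gpc6, Xylt1, Ndst1 and Hs3st3b1) and 28 did not pass the test. The threshold was an adjusted p under 0.05 in edgeR's quasi-likelihood test with Benjamini-Hochberg adjustment over all 12786 tested genes. That is 26.3% of the members, beside 9.78% of all tested genes (5.47% higher and 4.32% lower). Leaving out a single library gave 6 calls without STZ library 1, 6 without STZ library 3 and 5 without control library 1. On the log2 scale the members' median change was -0.02, beside -0.01 for all tested genes. In 8 members every STZ library stood above every control library, and in 5 every STZ library stood below, while 29.1% of all tested genes had groups that did not overlap (15.4% above and 13.7% below). Before adjustment, 9 members were higher and 6 lower at p under 0.05.

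**Figure D1:**
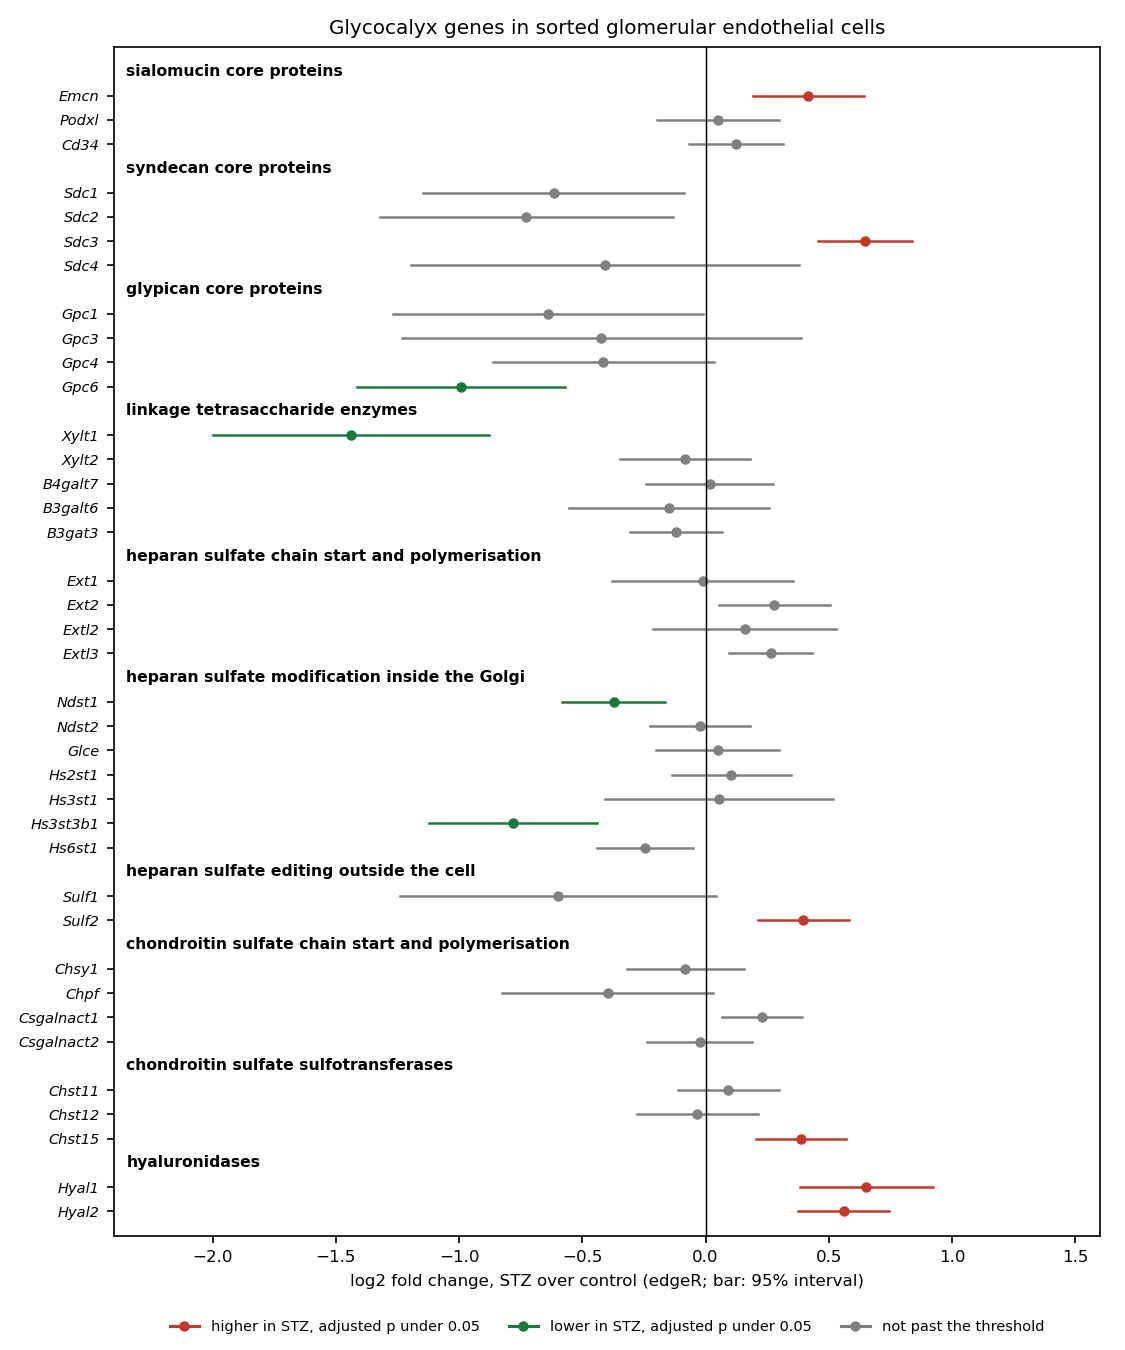
Fold changes, on the log2 scale, of STZ cells over control cells (x axis) are plotted for 38 members grouped by role (y axis). Points are edgeR estimates and bars are 95% intervals by a normal approximation. Both hyaluronidases and Sdc3 lie to the right of 0, and all 4 glypicans lie to the left of 0, of which Gpc6 alone passed the threshold.

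The start regions of 5 of the 10 changed members are shown so that their base composition can be read beside the expression values. They are the 250 bases before the RefSeq transcription start on mouse build GRCm38.p6 (mm10), written 5′ to 3′ on the gene's strand. Capitals mark the hexamer GGGCGG or its reverse complement CCGCCC, the core of the GC box.
Emcn, chr3:137340828-137341077, plus strand: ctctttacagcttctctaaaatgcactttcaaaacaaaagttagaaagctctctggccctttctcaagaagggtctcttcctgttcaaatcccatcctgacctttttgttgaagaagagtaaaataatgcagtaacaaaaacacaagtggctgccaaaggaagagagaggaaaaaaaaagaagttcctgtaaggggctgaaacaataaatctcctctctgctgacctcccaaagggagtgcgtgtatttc
Sdc3, chr4:130792287-130792536, plus strand: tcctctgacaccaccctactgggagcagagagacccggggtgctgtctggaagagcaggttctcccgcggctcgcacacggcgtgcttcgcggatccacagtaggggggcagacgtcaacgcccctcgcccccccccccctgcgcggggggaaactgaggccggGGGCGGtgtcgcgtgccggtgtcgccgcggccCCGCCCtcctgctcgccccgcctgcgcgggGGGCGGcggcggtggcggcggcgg
Hyal2, chr9:107568913-107569162, plus strand: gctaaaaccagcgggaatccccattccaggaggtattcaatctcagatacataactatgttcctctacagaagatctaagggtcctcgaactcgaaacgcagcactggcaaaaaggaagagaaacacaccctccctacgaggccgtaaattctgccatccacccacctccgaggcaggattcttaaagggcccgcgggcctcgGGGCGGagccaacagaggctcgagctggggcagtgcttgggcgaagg
Hyal1, chr9:107576700-107576949, plus strand: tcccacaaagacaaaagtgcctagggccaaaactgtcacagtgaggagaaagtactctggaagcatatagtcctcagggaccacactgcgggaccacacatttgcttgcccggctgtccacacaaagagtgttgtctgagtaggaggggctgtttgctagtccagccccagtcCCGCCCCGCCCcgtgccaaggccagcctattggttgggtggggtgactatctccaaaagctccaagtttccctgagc
Hs3st3b1, chr11:63922285-63922534, minus strand: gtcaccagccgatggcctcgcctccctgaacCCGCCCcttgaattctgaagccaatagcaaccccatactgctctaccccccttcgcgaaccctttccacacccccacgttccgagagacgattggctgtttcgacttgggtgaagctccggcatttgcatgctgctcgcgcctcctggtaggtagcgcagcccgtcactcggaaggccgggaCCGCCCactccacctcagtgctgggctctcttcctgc

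RefSeq start regions were matched for 28 of the 38 members, and 23 of these begin at the same base as the gene's listed start. The start used for Glce lies 52003 bases from its listed start. The hexamer occurred on either strand, overlaps counted, in 19 of the 28 members (67.9%), beside 32.7% of 32817 mouse start regions of the same length. It was found in 4 of the 6 members that were higher and in Hs3st3b1, the only lower member with an entry. Emcn, with 40.8% G+C, had no match, and Sdc3, with 76.4% G+C, had 3. The median G+C content was 64.6% over the 28 members and 52.4% over all start regions. Of the other motifs searched on both strands, CCGGAA was in 3 members and 12% of all start regions, CACGTG in 3 members and 6.02%, TGANTCA in 1 member and 6.75%, and TATAAA in 0 members and 12.4%. The full palindromic glucocorticoid response element was in 0 members and in 3 of the 32817 start regions. The 32817 start regions also cover genes not measured in these libraries, so they are not a like set for the members. The motif counts describe letters in a window and carry no information on binding.

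Among the sialomucins, Emcn (endomucin, an endothelial sialomucin) was higher in STZ cells, while Podxl (podocalyxin, which podocytes also make in quantity) and Cd34 did not pass the test. Emcn stood at 3981, 3503 and 3570 CPM in STZ libraries 1 to 3, against 3011, 2897 and 2368 CPM in control libraries 1 to 3. Every STZ library lay above every control library, and the log2 fold change was 0.42 ± 0.11 (SE; adjusted p = 0.0355). The 10 endothelial markers had a median log2 fold change of 0.37, near that of Emcn, and 5 of them were called higher. The markers ran from -0.01 to 0.80. Sdc3 (0.65), Hyal1 (0.65), Hyal2 (0.56), Sulf2 (0.40) and Chst15 (0.39), the other members called higher, also lay in that range. The part of endothelial RNA content in these rises was not tested. The adjusted p of Emcn was 0.182 without STZ library 1, 0.0995 without STZ library 3 and 0.0612 without control library 1. Emcn lies on mm10 chromosome 3, from 137341078 to 137431069. Podxl stood at 3929, 3323 and 3873 CPM in STZ libraries, against 3766, 4021 and 2956 CPM in control libraries, and the groups overlapped. Its 95% interval, by a normal approximation, was -0.20 to 0.30 on the log2 scale. Cd34 stood at 138, 125 and 137 CPM in STZ libraries, against 109, 125 and 134 CPM in control libraries (0.12 ± 0.10, adjusted p = 0.486).

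Emcn was the most abundant member per length. It reached 2591 ± 182 CPM per kilobase in STZ cells and 1940 ± 241 CPM per kilobase in control cells (SD, n = 3 each), which ranked 3 among all tested genes in both groups. Within the summed per-kilobase level of the 3 sialomucins, Emcn took 77.6 ± 1.18% in STZ cells and 72.9 ± 1.11% in control cells, and Podxl took 20.8 ± 1.13% in STZ cells and 25.2 ± 1.18% in control cells. The ratio of Emcn to Podxl was 3.80, 3.95 and 3.46 in STZ libraries, against 3.00, 2.70 and 3.00 in control libraries. These ratios did not overlap; the exact permutation test gave p = 0.1, two-sided, which is the smallest that 3 libraries against 3 allow.

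**Figure D2:**
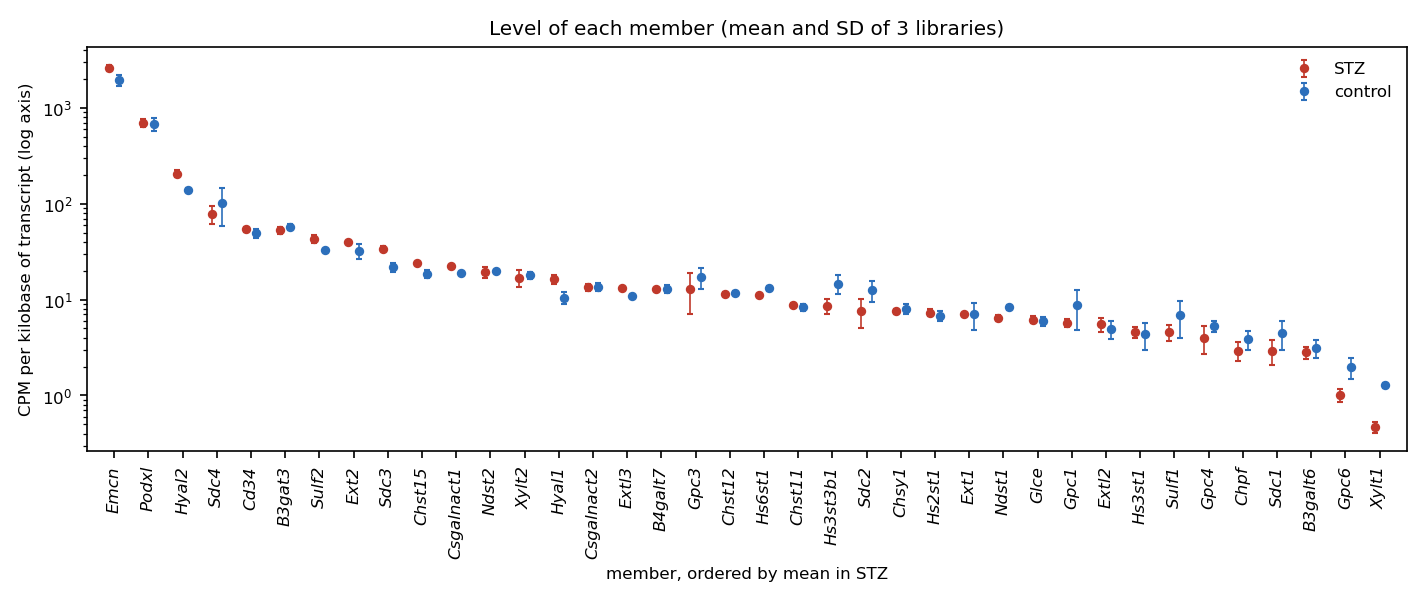
The mean level of each member in CPM per kilobase of transcript (log y axis) is plotted with its SD over 3 libraries, STZ left and control right within each gene, ordered by the STZ mean (x axis). Emcn (2591 in STZ, 1940 in control) and Podxl (696 in STZ, 672 in control) stand above all other members, and Xylt1 (0.466 in STZ, 1.28 in control) is the lowest.

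The syndecans split by gene. Sdc3, a syndecan first known from neurons, was higher in STZ cells, and the other 3 syndecans had negative fold changes that did not pass the test. Sdc3 stood at 180, 164 and 162 CPM in STZ libraries 1 to 3, against 106, 119 and 96.8 CPM in control libraries. The lowest STZ library was above the highest control library, with a log2 fold change of 0.65 ± 0.10 (adjusted p = 0.000912). Sdc3 occupies chromosome 4 from 130792537 to 130826318.

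Sdc4, the most abundant syndecan per length, stood at 203, 146 and 223 CPM in STZ libraries, against 281, 341 and 133 CPM in control libraries. The control libraries ran both above and below the STZ ones, with control library 3 lowest of all 6 (-0.41 ± 0.40, adjusted p = 0.619). Sdc2 stood at 28.7, 15.6 and 31.5 CPM in STZ libraries, against 46.4, 47.9 and 30.0 CPM in control libraries (-0.73 ± 0.30, adjusted p = 0.210). Sdc1, the epithelial syndecan, stood at 9.57, 6.05 and 11.3 CPM in STZ libraries, against 12.2, 18.8 and 10.2 CPM in control libraries (-0.62 ± 0.27, adjusted p = 0.191). In both of these genes the groups overlapped through control library 3. DESeq2 put Sdc2 past the threshold as lower in STZ cells (adjusted p = 0.0191), the only setting tried that did so.

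As a share of the syndecan level per kilobase, Sdc3 made up 27.7%, 33.4% and 23.9% in STZ libraries, against 13.9%, 13.1% and 22.7% in control libraries. Sdc4 made up 63.3%, 59.8% and 66.4% in STZ libraries, against 74.3%, 75.7% and 62.9% in control libraries. Sdc4 thus stayed the leading syndecan transcript in all 6 libraries. The per-kilobase ratio of Sdc3 to Sdc4 was 0.438, 0.559 and 0.361 in STZ libraries, against 0.188, 0.173 and 0.361 in control libraries. STZ library 3 and control library 3 were almost level (exact permutation p = 0.1, two-sided). The ratio of Sdc3 to Sdc2 was 4.17, 7.04 and 3.43 in STZ libraries, against 1.53, 1.66 and 2.15 in control libraries, with a clear gap between the groups (exact permutation p = 0.1, two-sided).

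All 4 measured glypicans had negative fold changes, with a median of -0.53, and Gpc6 passed the test. Of all 12786 tested genes, 6627 had negative fold changes. Gpc3 and Gpc4 lie on the X chromosome, and the sex-linked genes separate the libraries exactly as the treatment does. Gpc6 stood at 6.57, 5.88 and 7.93 CPM in STZ libraries 1 to 3, against 15.3, 15.3 and 9.5 CPM in control libraries. All STZ libraries lay below all control libraries, and the log2 fold change was -0.99 ± 0.22 (adjusted p = 0.0105). Without control library 1 the adjusted p was 0.0752. Gpc6 spans chromosome 14 from 116925297 to 117979529.

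Gpc1, a glypican that many endothelia express, stood at 20.01, 18.2 and 22.2 CPM in STZ libraries, against 34.2, 42.6 and 15.9 CPM in control libraries (-0.64 ± 0.32, adjusted p = 0.290). Gpc3 stood at 30.4, 15.6 and 42.2 CPM in STZ libraries, against 48.5, 39.0 and 29.4 CPM in control libraries (-0.42 ± 0.41, adjusted p = 0.614). Gpc4 stood at 9.38, 6.31 and 12.2 CPM in STZ libraries, against 13.6, 12.7 and 10.6 CPM in control libraries (-0.41 ± 0.23, adjusted p = 0.297). In these 3 genes the groups overlapped. Gpc3 held 53.1 ± 8.06% of the glypican level per kilobase in STZ cells and 52.2 ± 4.85% in control cells, and Gpc6 was the smallest part in both. Over all transcripts of GENCODE M21, Gpc1 shares 18.9% of its exon bases with Ankmy1 on the opposite strand. In the authors' tables the 2 listed transcripts do not meet: Gpc1 ends at 92860196 and Ankmy1 starts at 92870129 on chromosome 1. Ankmy1 averaged 3.31 CPM in STZ cells and 4.03 CPM in control cells. Which transcripts and strand setting the counting used is not known here, and a share of Ankmy1 reads in the Gpc1 counts was not tested.

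**Figure D3:**
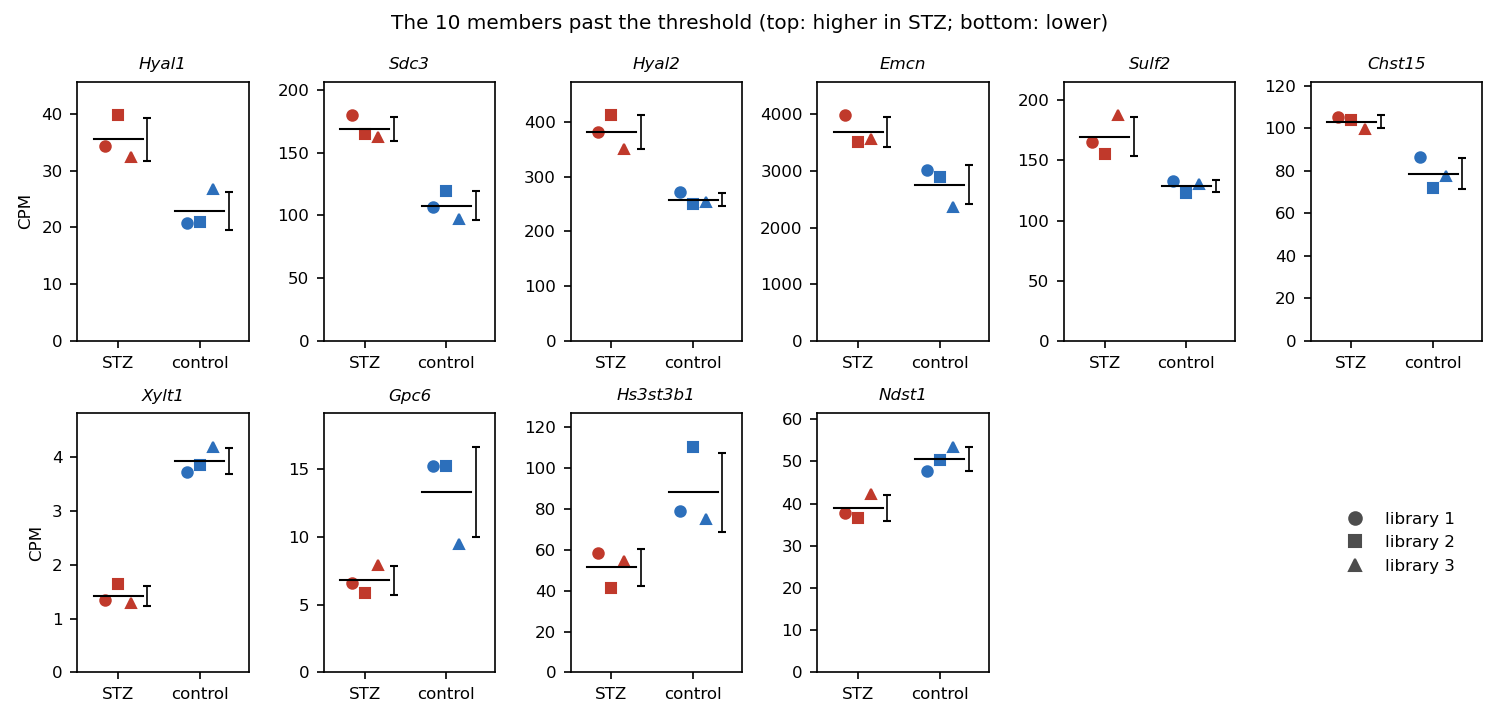
CPM (y axis, from 0) in each STZ (left, red) and control (right, blue) library is plotted for the 10 members past the threshold; symbols give the library number, horizontal lines the mean, and bars the SD of 3 libraries. In each of the 10 genes the 3 STZ libraries lie wholly above (top row) or wholly below (bottom row) the 3 control libraries. The 10 were picked by a test on these same libraries, so the separation adds no support. Of all 12786 tested genes, 29.1% had groups that did not overlap.

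At the linker step, which both heparan sulfate and chondroitin sulfate need, edgeR called 1 of 5 enzymes, as lower in STZ cells. That is 20%, beside 9.78% of all tested genes called in either direction and 4.32% called lower. DESeq2 called 0 of the 5. Xylt1, one of the xylosyltransferases that start the linker, stood at 1.35, 1.64 and 1.30 CPM in STZ libraries 1 to 3, against 3.74, 3.85 and 4.20 CPM in control libraries. Its log2 fold change of -1.44 ± 0.29 had the greatest size of any member (adjusted p = 0.00589). The counts behind it were low: 14, 19 and 16 in STZ libraries and 34, 24 and 19 in control libraries. DESeq2 gave Xylt1 no adjusted p. Xylt1 lies on chromosome 7, from 117380979 to 117667630.

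Xylt2, the other xylosyltransferase, stood at 52.0, 71.3 and 49.9 CPM in STZ libraries, against 59.7, 57.2 and 67.4 CPM in control libraries (log2 fold change -0.08, 95% interval -0.35 to 0.18). Xylt2 was the major form: the per-kilobase ratio of Xylt1 to Xylt2 was 0.0290, 0.0257 and 0.0289 in STZ libraries, against 0.0698, 0.0752 and 0.0695 in control libraries (exact permutation p = 0.1, two-sided). The galactosyltransferases B4galt7 (20.7 ± 0.534 CPM in STZ cells, 20.5 ± 1.89 CPM in control cells) and B3galt6 (9.06 ± 1.32 CPM in STZ cells, 10.1 ± 2.15 CPM in control cells) did not pass the test, nor did the glucuronosyltransferase B3gat3 (83.4 ± 7.10 CPM in STZ cells, 90.6 ± 6.03 CPM in control cells). Summed over the 5 linker enzymes, the level per kilobase was 82.3, 94.7 and 80.3 CPM in STZ libraries, against 90.8, 94.8 and 91.6 CPM in control libraries, and the groups overlapped.

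No enzyme of heparan sulfate chain initiation and extension passed the test, 0 of 4 against the 9.78% of all genes; edgeR gave 2 of them an unadjusted p under 0.05 and DESeq2 also called 0. Extl3, which adds the first N-acetylglucosamine of the chain, stood at 79.7, 79.2 and 78.7 CPM in STZ libraries, against 66.8, 67.9 and 62.7 CPM in control libraries. The groups did not overlap, and the difference missed the threshold (0.26 ± 0.09, adjusted p = 0.0738). Ext2, a subunit of the exostosin polymerase, stood at 118, 114 and 108 CPM in STZ libraries, against 95.3, 108 and 75.6 CPM in control libraries (0.28 ± 0.12, adjusted p = 0.156), and without control library 2 its adjusted p was 0.0474. Ext1, its partner subunit, averaged 24.4 ± 0.694 CPM in STZ cells and 24.3 ± 7.81 CPM in control cells. The spread of Ext1 lay in the control group, at 24.6, 32.0 and 16.3 CPM. Extl2, a related transferase, averaged 15.7 ± 2.66 CPM in STZ cells and 13.9 ± 3.02 CPM in control cells.

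In the Golgi modification of heparan sulfate, 2 of 7 measured enzymes were lower in STZ cells and 0 were higher. At an unadjusted p under 0.05 edgeR gave 3 lower and 0 higher, and DESeq2 called 1 lower, Hs3st3b1, and 0 higher. Ndst1, an N-deacetylase and N-sulfotransferase that opens the way for later sulfation, stood at 37.9, 36.6 and 42.3 CPM in STZ libraries 1 to 3, against 47.8, 50.4 and 53.5 CPM in control libraries. The groups did not overlap (-0.37 ± 0.11, adjusted p = 0.0419), but the call was lost when any one of the 6 libraries was left out (adjusted p from 0.0553 to 0.164). Hs3st3b1, a heparan sulfate 3-O-sulfotransferase, stood at 58.3, 41.3 and 54.5 CPM in STZ libraries, against 79.0, 110 and 74.9 CPM in control libraries. Here too every STZ library was below every control library (-0.78 ± 0.17, adjusted p = 0.0251), and without STZ library 3 the adjusted p was 0.056. Hs3st3b1 lies on chromosome 11 from 63884693 to 63922284, and its sulfotransferase domain is closely like that of Hs3st3a1, so reads may be divided between them.

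Hs6st1, a 6-O-sulfotransferase, stood at 40.7, 40.4 and 42.2 CPM in STZ libraries, against 50.8, 49.5 and 45.5 CPM in control libraries. It was lower in all 3 STZ libraries and missed the threshold (-0.25 ± 0.10, adjusted p = 0.150). The other 4 enzymes of this step had log2 fold changes between -0.02 and 0.10: Ndst2, the glucuronyl epimerase Glce, the 2-O-sulfotransferase Hs2st1 and Hs3st1. Ndst2 averaged 75.6 ± 9.85 CPM in STZ cells and 76.9 ± 1.62 CPM in control cells, with a 95% interval of -0.23 to 0.18, and the per-kilobase ratio of Ndst1 to Ndst2 was 0.334, 0.272 and 0.405 in STZ libraries, against 0.402, 0.430 and 0.437 in control libraries (exact permutation p = 0.2, two-sided). For Hs2st1 the interval was -0.14 to 0.35, for Glce -0.20 to 0.30, and for Hs3st1 -0.41 to 0.52. The per-kilobase sum of the 7 enzymes was 64.2, 63.6 and 62.5 CPM in STZ libraries, against 72.2, 76.0 and 70.4 CPM in control libraries. All 3 STZ sums lay below the control sums, a difference carried by Hs3st3b1, Hs6st1 and Ndst1. The ratio of Hs3st3b1 to Hs3st1 per kilobase was 2.23, 1.66 and 1.72 in STZ libraries, against 2.24, 5.51 and 3.28 in control libraries, so STZ library 1 and control library 1 were nearly equal (exact permutation p = 0.1, two-sided).

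Outside the cell, the 6-O-endosulfatases Sulf1 and Sulf2 remove sulfate from finished heparan sulfate. Sulf2 was higher in STZ cells, at 166, 156 and 187 CPM in STZ libraries 1 to 3, against 133, 123 and 130 CPM in control libraries. The groups did not overlap, and the log2 fold change was 0.40 ± 0.09 (adjusted p = 0.0168). Leaving out STZ library 1, STZ library 3 or control library 1 moved the adjusted p of Sulf2 to 0.054, 0.101 and 0.0529 and ended the call each time. Sulf2 lies on chromosome 2 from 166073899 to 166155285. Sulf1 stood at 20.1, 17.7 and 25.8 CPM in STZ libraries, against 35.4, 42.6 and 17.0 CPM in control libraries (-0.60 ± 0.33, adjusted p = 0.331), and control library 3 was again below all others. Per kilobase, Sulf2 exceeded Sulf1 by 9.64, 10.3 and 8.50 times in STZ libraries, against 4.41, 3.38 and 8.96 times in control libraries. Those ratios overlapped between the groups (exact permutation p = 0.2, two-sided).

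Among the 7 chondroitin sulfate enzymes, 1 passed the test. Chst15, which adds another sulfate to 4-sulfated chondroitin to make the E-type unit, stood at 105, 104 and 99.8 CPM in STZ libraries, against 86.5, 71.8 and 77.8 CPM in control libraries. Every STZ library exceeded every control library (0.39 ± 0.09, adjusted p = 0.0184). The adjusted p was 0.0857 without STZ library 1 and 0.056 without control library 2. Chst15 lies on chromosome 7 from 132236255 to 132317155, and 17.9% of its exon bases overlap the antisense gene Gm10584. The 4-O-sulfotransferases Chst11 (48.7 ± 2.05 CPM in STZ cells, 45.8 ± 3.80 CPM in control cells) and Chst12 (20.7 ± 0.723 CPM in STZ cells, 21.2 ± 0.607 CPM in control cells) did not pass.

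For chain extension, Csgalnact1, which starts chondroitin sulfate on the linker, stood at 91.5, 97.2 and 95.3 CPM in STZ libraries, against 80.0, 81.6 and 80.9 CPM in control libraries. Its groups were separate but the adjusted p was 0.108 (0.23 ± 0.08). Csgalnact2 averaged 49.1 ± 3.99 CPM in STZ cells and 49.9 ± 4.58 CPM in control cells. The synthase Chsy1 averaged 31.5 ± 1.94 CPM in STZ cells and 33.5 ± 3.87 CPM in control cells. Chpf, the partner that chain extension needs, stood at 10.4, 7.09 and 11.0 CPM in STZ libraries, against 11.5, 15.7 and 10.2 CPM in control libraries (-0.40 ± 0.22, adjusted p = 0.294). None of these 4 passed the test in edgeR or DESeq2, and edgeR gave 1 of them an unadjusted p under 0.05.

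Both hyaluronidases were higher in STZ cells. Hyal2, a glycolipid-anchored enzyme that cuts long hyaluronan at the cell surface, stood at 382, 412 and 350 CPM in STZ libraries, against 271, 249 and 254 CPM in control libraries. The gap between the groups was wider than the range within either, and the log2 fold change was 0.56 ± 0.09 (adjusted p = 0.00196). Per kilobase Hyal2 was the third most abundant member, at 206 ± 16.6 CPM in STZ cells and 139.7 ± 6.29 CPM in control cells. Hyal1, the lysosomal hyaluronidase, stood at 34.4, 39.8 and 32.5 CPM in STZ libraries, against 20.8, 21.0 and 26.7 CPM in control libraries, with no overlap (0.65 ± 0.14, adjusted p = 0.00885). Without control library 1 its adjusted p was 0.0639.

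Hyal2 and Hyal1 are neighbours on the plus strand of chromosome 9, from 107569163 to 107572778 and from 107576952 to 107580133. Over all transcripts of GENCODE M21, 50.8% of the exon bases of Hyal1 are shared with Naa80 on the same strand. In the authors' tables Naa80 has its older symbol Nat6 and a transcript from 107580170 to 107584048, just past the end of Hyal1, and it was also higher in STZ cells (0.51 ± 0.10, adjusted p = 0.00449). Which transcripts the counting used is not known here, so some reads of Hyal1 may belong to Naa80. No exon overlap was found for Hyal2. The ratio of Hyal2 to Hyal1 per kilobase was 13.05, 12.2 and 12.7 in STZ libraries, against 15.4, 13.95 and 11.2 in control libraries (exact permutation p = 0.6, two-sided).

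By step, with 2 to 7 genes each, the members are described by counts only, and no difference between steps was tested. Of all tested genes, 9.78% were called, 5.47% higher and 4.32% lower, and the 1 call among 7 chondroitin sulfate enzymes (14.3%) is near that share. Both hyaluronidases were higher (median log2 fold change 0.61), 2 of 7 Golgi modification enzymes were lower (median -0.02), and 1 of 4 glypicans was lower (median -0.53). By class, the 11 core proteins had 2 higher and 1 lower (median -0.41), the 13 heparan sulfate enzymes 1 higher and 2 lower (median 0.05), and the 7 chondroitin sulfate enzymes 1 higher and 0 lower (median -0.02). The summed level per kilobase of the chondroitin sulfotransferases was 44.8, 45.3 and 43.6 CPM in STZ libraries, against 39.4, 37.4 and 39.0 CPM in control libraries. For the hyaluronidases the sum was 222, 241 and 204 CPM in STZ libraries, against 156, 145 and 149.6 CPM in control libraries. For the sialomucins it was 3592, 3138 and 3293 CPM in STZ libraries, against 2868, 2842 and 2274 CPM in control libraries, and for extracellular heparan sulfate editing 46.3, 43.2 and 53.0 CPM in STZ libraries, against 41.4, 40.3 and 36.6 CPM in control libraries. Those 4 per-kilobase sums stood higher in every STZ library, as did 15.4% of single tested genes, and the per-kilobase sums of the other steps did not. Without division by length, the sialomucin sums overlapped (6951 to 8047 CPM in STZ libraries, 5458 to 7043 CPM in control libraries). Those of heparan sulfate chain initiation and extension then did not (226.8 to 241 CPM in STZ libraries, 165.5 to 224.9 CPM in control libraries). In each of the 4 per-kilobase sums the largest part in STZ cells was 1 called member. These were Chst15 (24.2 ± 0.692 CPM per kilobase, SD), Hyal2 (206 ± 16.6), Emcn (2591 ± 182) and Sulf2 (42.9 ± 4.12). The 4 sums thus largely repeat the calls of single genes. The 8 ratios between members given above have adjusted p from 0.16 to 0.6, chosen after the values were seen.

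The level of podocyte and mural RNA moved with several of these genes. In 17 of 38 members (44.7%) STZ library 2 was the lowest STZ library and control library 3 the lowest control library, the order also found in 11 of 12 podocyte markers, 7 of 11 mesangial and mural markers and 19.1% of all tested genes; this order was picked after the values were seen. The 17 include 3 of the 4 syndecans, all 4 glypicans, Sulf1, Hs3st3b1, Emcn and Podxl. With the mean podocyte marker level as a term in the fit, Gpc6 had a log2 fold change of -0.62 (adjusted p = 0.0898). The log2 fold changes of Sdc4 and Sulf1 turned positive, to 0.29 and 0.08. In that fit Ext2 (0.48, adjusted p = 0.00492) and Extl3 (adjusted p = 0.0495) passed as higher, beside Emcn, Sdc3, Sulf2, Chst15, Hyal1 and Hyal2. Hs3st3b1, Xylt1 and Ndst1 were still lower.

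**Figure D4:**
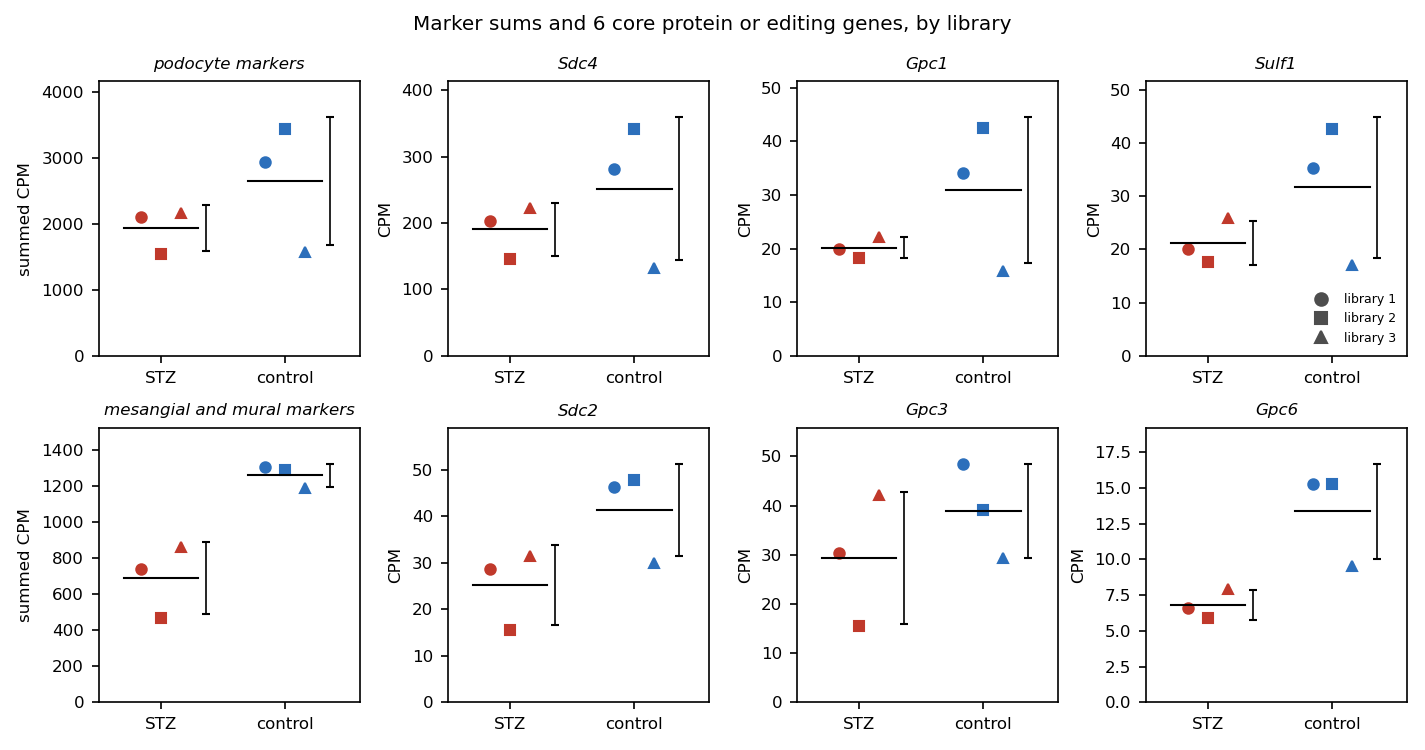
Summed CPM of podocyte markers and of mesangial and mural markers (left column) and CPM of 6 members (y axes, from 0) are plotted for each STZ (left, red) and control (right, blue) library, with mean lines and SD bars of 3 libraries. Control library 3 (triangle) is the lowest control library in the podocyte sum (1576 CPM) and in Sdc4 (133 CPM), Gpc1 (15.9 CPM) and Sulf1 (17.0 CPM).

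Without control library 3, 12 members passed instead of 10: Gpc1 (-0.92, adjusted p = 0.00109), Sdc4 (-0.70, adjusted p = 0.0492) and Sulf1 (-0.87, adjusted p = 0.00381) were then lower, and Ndst1 was lost. With the mesangial and mural marker level as a term, 1 member passed, Gpc3, as higher (1.14, adjusted p = 0.0415), and the 10 calls above were lost. The log2 fold changes of 4 of the 10 were larger in size in that fit while their SE also grew: Sdc3 (0.73 ± 0.20, adjusted p = 0.0823), Sulf2 (0.64 ± 0.18, adjusted p = 0.0974), Emcn (0.60 ± 0.24, adjusted p = 0.251) and Xylt1 (-1.86 ± 0.65, adjusted p = 0.183). The other 6 were smaller in size: Chst15 (0.35), Hyal2 (0.34, adjusted p = 0.412), Hyal1 (0.26), Gpc6 (-0.41), Ndst1 (-0.22) and Hs3st3b1 (-0.20). That marker level does not overlap between the groups, so it and the treatment are hard to separate in 6 libraries, and the median SE of the members was 0.25 in that fit against 0.13 without the term. The part of podocyte and mural RNA in the fold changes of the members was not tested.

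**Figure D5:**
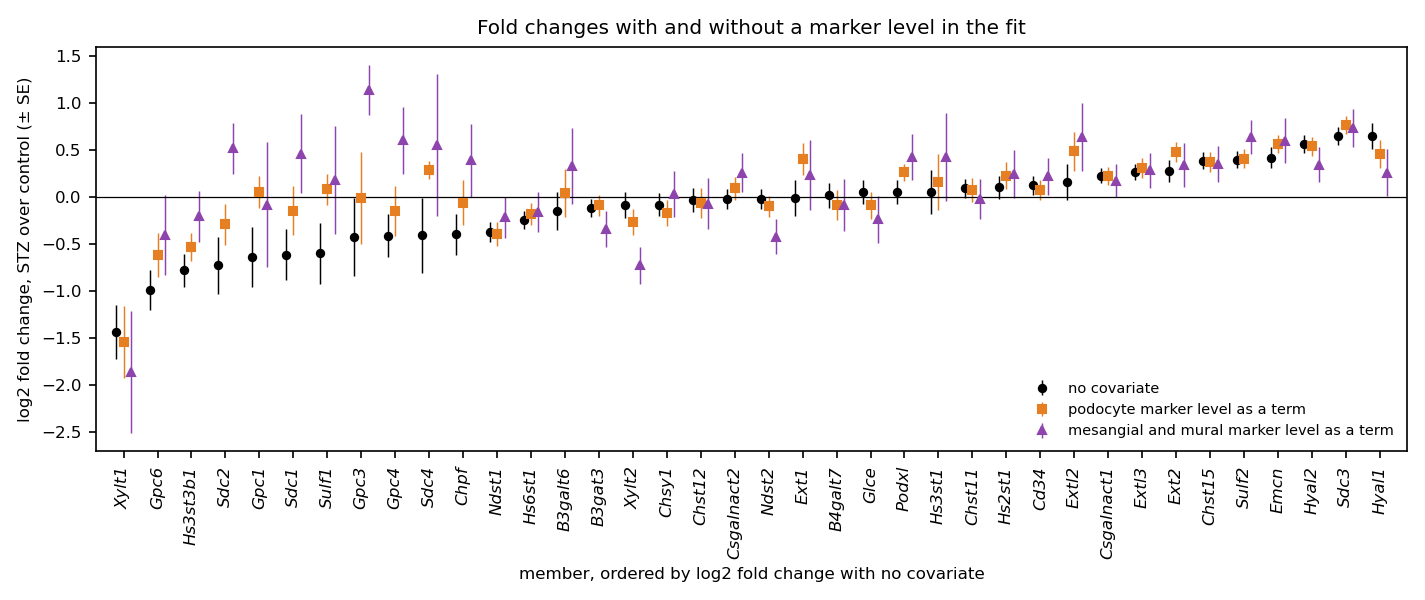
Log2 fold changes of STZ over control cells (y axis, ± SE) are plotted for each member (x axis) in 3 fits: without a covariate (black circles), with the podocyte marker level (orange squares) and with the mesangial and mural marker level (purple triangles). Sdc3 and Xylt1 keep their sign in all 3 fits, while Sdc4 goes from -0.41 without a covariate to 0.29 and 0.56 with the marker terms.

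Of 71 measured genes of the same pathways outside the list, 8 were higher in STZ cells and 2 lower (14.1%, beside 9.78% of all genes; median log2 fold change 0.01). Tmem2, a cell-surface hyaluronidase, stood at 452, 493 and 424 CPM in STZ libraries, against 251, 231 and 246 CPM in control libraries (0.91 ± 0.09, adjusted p = 5.69e-05). Tmem2 was the 1 call among 6 measured hyaluronan synthases, receptors and other hyaluronan-degrading enzymes (16.7%, beside 9.78% of all tested genes). Of these 6, 4 had negative fold changes, and the median was -0.04 on the log2 scale. The hyaluronan synthase Has3 averaged 9.64 CPM in STZ cells and 11.2 CPM in control cells and did not pass (-0.23 ± 0.19, adjusted p = 0.524); Has1 and Has2 were not analysed here. Of the core proteins, Srgn (serglycin, 0.60 ± 0.10) and Col18a1 (the collagen that yields endostatin, 0.56 ± 0.09) were higher, and Cspg4 (the pericyte proteoglycan NG2, -1.28 ± 0.16) was lower. Cspg4 is itself a mural gene, and the mural marker sum above was lower in every STZ library. The part of mural RNA in the Cspg4 difference was not tested.

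Among 17 genes of sialylation, 4 were higher and 1 lower (29.4%, beside 9.78% of all tested genes, of which 5.47% were higher and 4.32% lower), and DESeq2 called 3 higher and 1 lower. The sialyltransferases St3gal5 (0.79 ± 0.13, adjusted p = 0.00268) and St6galnac4 (0.50 ± 0.11, adjusted p = 0.01) and the sialic acid synthesis enzymes Nans (0.48 ± 0.13, adjusted p = 0.0293) and Gne (0.31 ± 0.09, adjusted p = 0.0389) were higher, while Cmas, which activates sialic acid, was lower (-0.45 ± 0.12, adjusted p = 0.035). Several of these calls rested on single libraries or settings. Gne passed in 8 of 17 alternative settings, missing with DESeq2 (adjusted p = 0.0742) and without each STZ library, control library 1 or control library 2 (0.0746 to 0.124). Cmas passed in 11 settings, missing without STZ library 1, STZ library 3, control library 1 or control library 2 (0.077 to 0.168), and Nans in 12, missing without STZ library 1, STZ library 3, control library 1 or control library 3 (0.0575 to 0.15). St6galnac4 missed without control library 1 (0.0588). Gne also missed with the replicate block (0.085) and the podocyte covariate (0.084), and Cmas with thinning (0.136). With the mesangial and mural covariate, all 10 called genes outside the list missed the threshold (adjusted p from 0.0802 for Tmem2 to 0.578 for Gne). Chst14, the dermatan sulfate sulfotransferase, was higher (0.49 ± 0.12, adjusted p = 0.0189) but passed in 10 of 17 settings, missing with thinning (0.0608), with the podocyte covariate (0.0529) and without STZ library 1, STZ library 2, control library 1 or control library 2 (0.0526 to 0.0755). Sugar nucleotide and sulfate donor supply had 0 of 11 genes past the threshold (0 higher and 1 lower at an unadjusted p under 0.05 in edgeR), and lysosomal glycosaminoglycan breakdown had 0 of 12 (2 higher and 1 lower by the same count); DESeq2 also called 0 in both lists. The 5 other heparan sulfate and linker enzymes had 0 calls in edgeR and in DESeq2, and 0 at an unadjusted p under 0.05.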

How the data were processed

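The aligner, the counting tool and its strand setting were not given in the sources used here. The authors deposited expected counts per gene, one table per library; the submitters' processing notes name mouse build mm10 and limma without giving their role. Values that end in one decimal occur in 2251 genes, with 5 members among them, and 34 blank cells were read as 0. Values were rounded to whole numbers and tested with edgeR 4.0.16 (R 4.3.3): filterByExpr (12786 of 12911 genes kept), TMM scaling, robust quasi-likelihood F test, two-sided, on STZ over control with no covariate, and Benjamini-Hochberg adjustment over all tested genes. CPM per kilobase used the transcript length in the tables. The rule for named genes took every measured member, every other glycocalyx gene past the threshold (up to 12), the hyaluronan synthases, the 2 most abundant genes of each marker list and the sex-linked genes; the text gives marker lists by their sums and names a single marker where its value is needed, and 1 is not reported here. The members and lists were chosen with earlier results of these data known. Start regions and motifs come from RefSeq on GRCm38.p6, exon overlaps from GENCODE M21. On simulated counts for 12761 genes of this comparison, the test recovered 52.2% of 67 genes changed 1.5-fold, 84.8% of 66 changed 2-fold and 100% of 66 changed 4-fold, and 11.3% of 177 calls were unchanged genes. Replicate numbers occur in both groups, but deviations of same-numbered libraries correlated at 0.12, -0.13 and -0.16, so the libraries were not treated as paired. Alternatives were other scaling factors, 2 filters, DESeq2 1.42.0, limma-voom (limma 3.58.1), a non-robust fit, the replicate block, thinning to the shallowest library, marker levels as covariates, a threshold of 0.10, and each library left out.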

Additional observations from a re-analysis of the deposited data

How the results depend on the processing

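Counts of calls moved by over 1.5 times under 5 of the planned settings and when libraries were left out; in each case the cause was not tested. With the replicate block, 2 members were lower in place of 4 (Gpc6 and Xylt1), with 5 higher and 1001 genes called in all; the numbers do not pair the libraries, so a call lost there is not read as a weaker effect. Thinning left 1 other glycocalyx gene lower. The podocyte marker covariate gave 1888 calls (1060 higher). The mesangial and mural marker covariate gave 199 (123 higher, 76 lower), 1 member (1 higher, 0 lower) and 1 other glycocalyx gene (1 higher, 0 lower). The 10 other glycocalyx genes called without a covariate all missed the threshold there, so this 1 gene was not among them. The median SE of the members also grew from 0.13 to 0.25 in that fit. At a threshold of 0.10, 866 genes were lower. With single libraries left out, the calls ran from 662 to 1291 over all genes (426 to 695 higher, 236 to 596 lower), from 5 to 12 over the members (3 to 6 higher, 2 to 6 lower), and from 5 to 14 over the other glycocalyx genes (4 to 7 higher, 1 to 7 lower). The highest counts came without control library 3.

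The 10 calls among members varied in how many of 17 settings kept them. Sdc3 and Hyal2 passed in 16 settings, Hyal1 in 15, Xylt1 in 15 of the 16 that gave it an adjusted p, Gpc6, Hs3st3b1 and Chst15 in 14, Sulf2 in 13, Emcn in 11 and Ndst1 in 7. Emcn missed the threshold in the non-robust fit (adjusted p = 0.0512), with the replicate block (0.0635), with the mesangial and mural covariate and without STZ library 1, STZ library 3 or control library 1. Ndst1 missed it with DESeq2 (adjusted p = 0.0603), the block (0.0591), thinning (0.172), the mesangial and mural covariate and each library left out.

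Fold changes that turned their sign were, on the log2 scale, all but Gpc3 in genes not past the threshold in either fit. Ext1 was at 0.012 with limma-voom and 0.032 with the replicate block. Thinning gave B4galt7 -0.14, Glce -0.057, Csgalnact2 0.036 and Chst12 0.093. The podocyte covariate gave Sdc4 0.29, Gpc1 0.054, B4galt7 -0.083, B3galt6 0.043, Ext1 0.41, Glce -0.088, Sulf1 0.080, Csgalnact2 0.092, Nphs1 0.0092 and Slc12a3 1.201. The mesangial and mural covariate gave Sdc1 0.46, Sdc2 0.52, Sdc4 0.56, Gpc3 1.14, Gpc4 0.60, B4galt7 -0.086, B3galt6 0.33, Ext1 0.24, Glce -0.24, Sulf1 0.18, Chsy1 0.032, Chpf 0.39, Csgalnact2 0.26, Chst11 -0.024, Nphs1 0.31, Itga8 0.38, Slc12a3 4.40 and Umod 2.13. With single libraries left out, values crossed 0 for Podxl (-0.066 to 0.14), Xylt2 (-0.26 to 0.011), B4galt7 (-0.037 to 0.086), B3galt6 (-0.28 to 0.042), Ext1 (-0.20 to 0.22), Ndst2 (-0.13 to 0.055), Glce (-0.0045 to 0.14), Hs3st1 (-0.11 to 0.38), Chsy1 (-0.13 to 0.013), Csgalnact2 (-0.070 to 0.054) and Laptm5 (-0.32 to 0.037). The cause was not tested. Members with few counts, Xylt1 and Gpc6 among them, have the widest counting error.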
